A study of Mus musculus with 6 samples.

Results

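The genes described here are 10 genes of MHC class I antigen presentation, taken by name from a count table of 24063 gene symbols: the heavy chain genes H2-K1 and H2-D1, the light chain gene B2m, the peptide loading genes Tap1, Tap2 and Tapbp, the immunoproteasome genes Psmb8, Psmb9 and Psmb10, and Nlrc5. RNA was sequenced from mouse bone marrow LSK cells, which lack lineage markers, carry Kit and Sca1 on their surface, and hold haematopoietic stem cells and early progenitors. Of 6 libraries, 3 are labelled Arid2fl/fl:MxCre+ (knockout) and 3 MxCre+ (control), all of C57/BL6 background. Arid2 encodes a subunit of the PBAF chromatin remodelling complex. Both groups carried the Cre transgene and both were injected with pIpC at 6 to 8 weeks of age, and cells were sorted 6 weeks after the injection. Cre in this line is under the interferon-responsive Mx1 promoter, which is not restricted to blood cells, and pIpC, a mimic of viral RNA, turns it on. The injection is thus itself an interferon stimulus, given to both groups. The labels do not tie libraries to animals, and p-values here speak only of the spread from library to library.

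Class I molecules show fragments of a cell's own proteins to CD8 T cells and act as a signal of self to NK cells. Cytosolic proteins are cut by proteasomes, the peptides are carried into the endoplasmic reticulum by the transporter made of Tap1 and Tap2, and tapasin, encoded by Tapbp, holds the empty heavy chain and its light chain at the transporter until a peptide binds. Interferon raises the whole set, in part through an exchange of proteasome subunits and in part through Nlrc5, a transactivator that acts at a shared promoter module of class I genes, and haematopoietic cells carry class I on their surface without any such stimulus.

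The promoters of these genes are shown because Nlrc5, interferon and NF-kB are known to act on class I genes through a short module next to the start site. RefSeq promoter windows (GRCm38.p6) were held for 8 of the 10 genes. The sequences below are the 250 bases before the annotated start of H2-K1 (chr17:34000348-34000597, minus strand), H2-D1 (chr17:35262844-35263093, plus strand), B2m (chr2:122147437-122147686, plus strand) and Tapbp (chr17:33919228-33919477, plus strand), and the 225 bases between the divergent start sites of Psmb9 and Tap1 (chr17:34187331-34187555, plus strand), each 5′ to 3′. Capitals mark matches, on either strand, to the NF-kB consensus or its class I core GGGATTCCC, to AAANNGAAA or its shorter form AANNGAAA (interferon-stimulated response element), to TGACG (the core of the X2 box and of CRE sites) and to CCAAT (bound by NF-Y, the factor of the Y box).
H2-K1: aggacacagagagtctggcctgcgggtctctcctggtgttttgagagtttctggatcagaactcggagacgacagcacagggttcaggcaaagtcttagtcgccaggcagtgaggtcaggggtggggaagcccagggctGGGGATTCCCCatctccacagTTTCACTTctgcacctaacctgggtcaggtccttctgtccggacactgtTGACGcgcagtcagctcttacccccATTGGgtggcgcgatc
H2-D1: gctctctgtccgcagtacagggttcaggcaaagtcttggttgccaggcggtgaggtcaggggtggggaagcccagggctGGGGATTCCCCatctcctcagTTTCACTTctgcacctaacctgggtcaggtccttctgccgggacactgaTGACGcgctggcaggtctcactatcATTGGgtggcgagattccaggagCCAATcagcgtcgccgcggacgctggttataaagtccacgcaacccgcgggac
B2m: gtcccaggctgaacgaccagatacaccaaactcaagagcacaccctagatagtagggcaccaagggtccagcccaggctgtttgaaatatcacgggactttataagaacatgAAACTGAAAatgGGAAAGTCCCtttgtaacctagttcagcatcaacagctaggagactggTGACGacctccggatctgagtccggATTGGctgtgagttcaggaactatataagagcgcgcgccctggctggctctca
Psmb9 to Tap1: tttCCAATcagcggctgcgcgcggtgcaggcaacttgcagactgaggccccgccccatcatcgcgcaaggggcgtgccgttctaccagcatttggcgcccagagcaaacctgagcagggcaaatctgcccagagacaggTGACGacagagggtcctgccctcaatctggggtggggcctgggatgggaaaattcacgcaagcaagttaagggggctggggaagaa
Tapbp: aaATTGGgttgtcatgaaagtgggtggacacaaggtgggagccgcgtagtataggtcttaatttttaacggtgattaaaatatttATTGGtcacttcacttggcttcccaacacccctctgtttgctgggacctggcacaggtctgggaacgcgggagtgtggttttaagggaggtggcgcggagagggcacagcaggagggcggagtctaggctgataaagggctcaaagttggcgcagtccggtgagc

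H2-K1 and H2-D1 held the same row of matches in the same order, GGGATTCCC, AANNGAAA, TGACG and CCAAT, over a stretch in which 161 of 177 aligned bases were identical. B2m held AAANNGAAA, the NF-kB consensus without that core, TGACG and CCAAT. Between Psmb9 and Tap1 there was a CCAAT and a TGACG, and before Tapbp only CCAAT. Matches to GGGATTCCC lie within the NF-kB consensus, and every AAANNGAAA holds an AANNGAAA. Over 32851 RefSeq promoter windows of the same length, 0.301% held GGGATTCCC, 7.25% the NF-kB consensus, 9.37% AAANNGAAA, 17.8% TGACG, 21.3% AANNGAAA and 33.8% CCAAT, so the short motifs are common among promoters. The motifs were chosen with these sequences in view, and a match describes letters, not a bound site. The windows before Psmb8 and Psmb10 held none of these letters.

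By position the genes fall into 3 places (GENCODE release M21 on GRCm38, mm10). The MHC on chromosome 17 holds 7 of them, between 33915899 and 35267499: Tapbp (33915899 to 33929292), H2-K1 (33996017 to 34000347), Psmb9 (34181987 to 34187764), Tap1 (34187553 to 34197225), Psmb8 (34197721 to 34201454), Tap2 (34203527 to 34216321) and H2-D1 (35262730 to 35267499). B2m lies on chromosome 2 (122147686 to 122153083). Chromosome 8 holds Nlrc5 (94434356 to 94527272) and Psmb10 (105935735 to 105938444). RefSeq and GENCODE do not place every start alike. The RefSeq starts used for the promoter windows of Tapbp (33919478), H2-D1 (35263094) and Psmb9 (34187330), for example, lie inside these GENCODE spans.

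The libraries held 12408966 to 28185678 counted reads, and 13679 symbols were tested. Arid2 itself was at 162, 150.2 and 155 CPM (read counts relative to library size, after TMM scaling, which corrects for library composition) in the libraries labelled knockout, against 165, 154 and 148 CPM in controls, and was not lower by label (log2 fold change 0.00, edgeR adjusted p = 0.991). A deleted exon cannot be seen in counts of the whole gene, so every direction below rests on the labels. Xist, expressed from the inactive X, was at 1984.5 to 2020.5 CPM in the libraries labelled knockout and 1919 CPM in control replicate 2, against 6.27 and 11.4 CPM in control replicates 1 and 3, which alone had high counts of Y-linked genes. Of the controls only replicate 2 was female, and all libraries labelled knockout were. Of the gate genes, Kit was at 426 to 446 CPM in the libraries labelled knockout and 493 to 655 CPM in controls, and Ly6a, which encodes Sca1, at 12.4 to 15.3 and 18.2 to 22.3 CPM. In RNA from many cells, a change in how many cells of a type were present and a change per cell cannot be told apart.

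Most class I presentation genes were strongly expressed in the RNA of both groups. All 10 passed the filter on low counts. By mean CPM H2-K1, H2-D1 and B2m stood at ranks 29, 36 and 39 of the 13679 genes, and Nlrc5, the lowest, at rank 2985. Markers of mature cells were also high in controls, with S100a9 at 737 to 1672 CPM and Lyz2 at 682 to 804 CPM. These levels thus cannot be assigned to a cell type. Between the groups, 1 of the 10 passed the test and was higher in the libraries labelled knockout, Tapbp, and 9 did not pass (edgeR quasi-likelihood test, Benjamini-Hochberg adjusted p under 0.05 over all genes). Over all genes tested, 8.42% passed, 3.85% as higher and 4.58% as lower, so 1 of 10 is near the background. DESeq2 and limma-voom also called Tapbp and none of the other 9, where they called 12.2% and 8.06% of all genes. At an unadjusted edgeR p under 0.05, which 24.9% of all genes met, Tapbp was again the sole gene of the 10. The median log2 fold change of the 10 genes was -0.02, against 0.00 over all genes, and 5 of the 10 were positive, against 49.6% of all genes. Groups did not overlap for 2 genes, Tapbp and H2-D1, both higher, against 31.2% of all genes (15.1% higher and 16.1% lower).

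**Figure D1:**
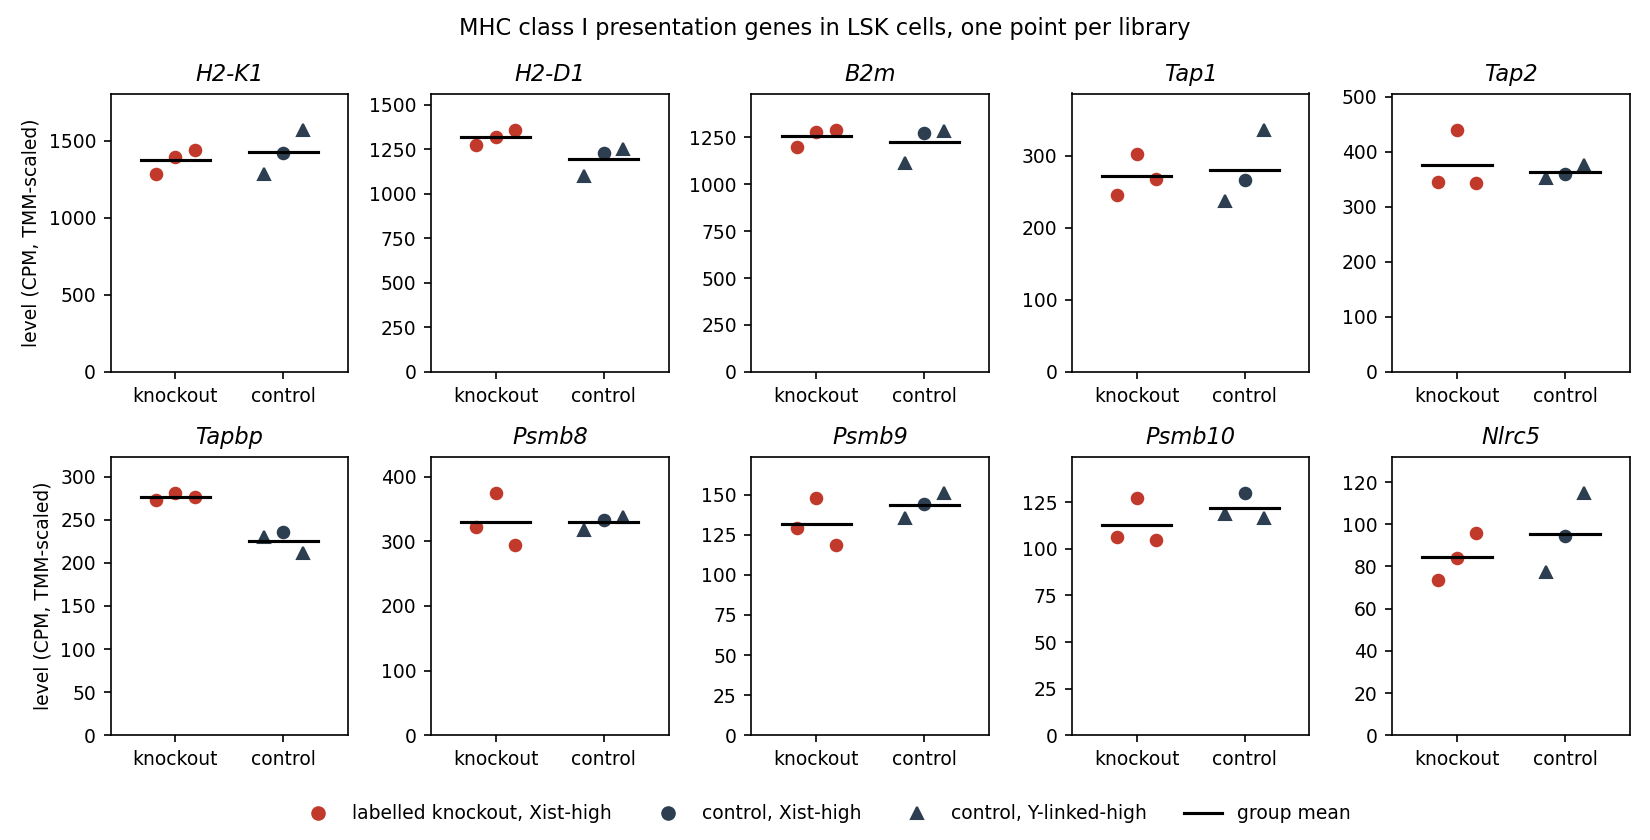
Level of each gene in CPM after TMM scaling (y axis, from 0), with 1 point per library, libraries labelled knockout left of controls, circles for Xist-high and triangles for Y-linked-high libraries, and a bar at the group mean. The points of Tapbp (273 to 281 CPM against 211 to 236 CPM) and of H2-D1 (1272 to 1358 CPM against 1101 to 1250.2 CPM) do not overlap between the groups, and those of the other 8 genes do.

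H2-K1 and H2-D1 encode the classical heavy chains that bind peptide in C57BL/6 mice. H2-K1 had 1286, 1397 and 1436 CPM in the libraries labelled knockout, against 1281, 1422 and 1569.9 CPM in controls. The ranges overlapped almost wholly, and the ratio of knockout to control was 96.4% (95% confidence interval 83.2% to 112%, edgeR adjusted p = 0.772). H2-D1 had 1272, 1318 and 1358 CPM in the libraries labelled knockout, against 1101, 1226 and 1250.2 CPM in controls. All 3 libraries labelled knockout lay above all 3 controls, but the gap between 1272 and 1250.2 CPM is small beside the spread within groups, and the ratio of 110.3% (97.6% to 125%) did not pass (edgeR adjusted p = 0.299). B2m, the light chain that pairs with the classical heavy chains, had 1196, 1275 and 1289 CPM against 1114, 1272 and 1280.3 CPM in controls. Its ratio was 103% (90.2% to 117%, edgeR adjusted p = 0.825), and control replicate 1 was the lowest library for H2-K1, H2-D1 and B2m alike.

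Heavy chain counts carry a mapping limit. Of the 50-base words of the main transcript, 8.79% in H2-K1 and 14.3% in H2-D1 also occur in transcripts of other genes, against 0% in B2m, Psmb8, Psmb9, Psmb10 and Nlrc5 and at most 2.0% in Tap1, Tap2 and Tapbp. The table also lists H2-L, an allele-dependent class I gene, with counts at 80.8% to 83.5% of those of H2-D1 in every library. Neither GENCODE M21 nor the RefSeq table lists an H2-L gene in this build. Whether reads were divided between H2-D1 and H2-L or counted for both is thus uncertain. Exons also overlap on opposite strands, where reads cannot be told apart unless counting used the strand: Tap1 and Psmb9 share 212 bases with each other, Tap2 shares 165 and 533 and Psmb8 498 with antisense genes, and Nlrc5 78 with a noncoding gene.

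Neither transporter gene passed the test, and their groups overlapped. Tap1 had 245, 303 and 267 CPM in the libraries labelled knockout, against 238, 266 and 336 CPM in controls (ratio 97.1%, 79.1% to 119%, edgeR adjusted p = 0.877). Tap2 had 345, 440.3 and 344 CPM against 353, 360.2 and 377 CPM in controls (ratio 104%, 88.3% to 121%, edgeR adjusted p = 0.802). The control spread of Tap1 came from control replicate 3 and the knockout spread of Tap2 from knockout replicate 2.

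Tapbp encodes tapasin, the chaperone that bridges the heavy chain to the transporter and favours the exchange of weak peptides for strong ones. Its level was 273, 281 and 276 CPM in the libraries labelled knockout, against 229.5, 236 and 211 CPM in controls. The libraries labelled knockout lay close together and above every control. The ratio of knockout to control was 123% (111% to 135%) and passed the test (log2 fold change 0.29, SE 0.06, edgeR adjusted p = 0.0288). Among controls, replicate 2, the sole female, had 236 CPM, and the males had 229.5 CPM (replicate 1) and 211 CPM (replicate 3). Control replicate 2 thus lay nearer to replicate 1 than the males lay to each other. A difference by sex among controls was not tested. Once sex was a term in the model, Tapbp did not pass (log2 fold change 0.23, SE 0.09, edgeR adjusted p = 0.392), in a fit where 0.314% of all genes did. None of the 10 genes passed in that fit, and 1, Tapbp, had an unadjusted p under 0.05, as had 1633 of 13679 genes. The call of Tapbp also changed when libraries were left out in turn. It was kept without control replicate 2 (edgeR adjusted p = 0.041) and lost without each of the other 5 (0.0512 to 0.103). The log2 fold change stayed between 0.25 and 0.34. Those fits called 2.1% to 7.15% of all genes, against 8.42% with every library. Summed markers of monocytes, macrophages and dendritic cells were also higher, at 2109 to 2802 CPM in the libraries labelled knockout and 1354 to 1589 CPM in controls, and their part in the Tapbp value was not tested. Annotated exons of Tapbp share 149 bases with those of Zbtb22 on the same strand and 904 with Gm19412, an antisense gene that the table does not list. Reads shared with Zbtb22 cannot be assigned by strand, and those shared with Gm19412 only if counting used it. Zbtb22 had 60.3 to 69.9 CPM in the libraries labelled knockout and 65.6 to 74.1 CPM in controls (log2 fold change -0.07, edgeR adjusted p = 0.655).

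**Figure D2:**
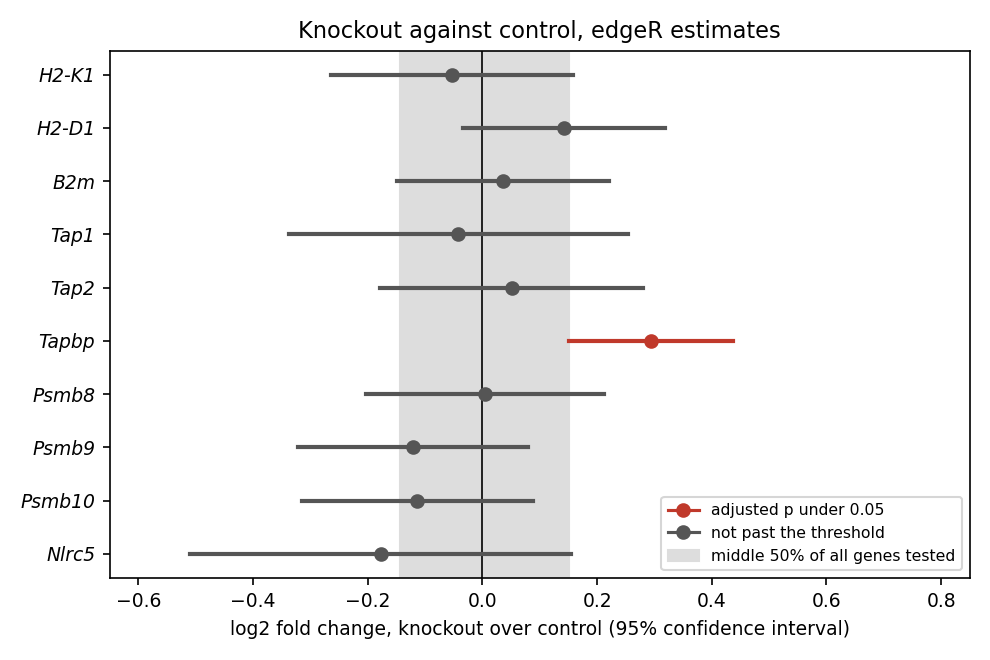
Log2 fold change of each gene, libraries labelled knockout over control (x axis), with its 95% confidence interval from edgeR, and the middle 50% of all genes tested as a grey band (-0.14 to 0.15). Tapbp is the sole gene whose interval lies above 0, and the other 9 intervals include 0.

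The immunoproteasome genes encode the catalytic subunits that replace their constitutive counterparts in immune cells and under interferon, and so shift which peptides are made. Psmb8 had 322, 374 and 294 CPM in the libraries labelled knockout, against 317, 333 and 337 CPM in controls (ratio 100.3%, 86.9% to 116%, edgeR adjusted p = 0.982). Psmb9 had 129, 148 and 119 CPM against 136, 144 and 151 CPM in controls (91.9%, 80.0% to 106%, edgeR adjusted p = 0.44). Psmb10 had 106, 127 and 104 CPM against 119, 129.8 and 117 CPM in controls (92.4%, 80.4% to 106%, edgeR adjusted p = 0.475). In each of the 3, knockout replicate 2 was the highest and knockout replicate 3 the lowest of the libraries labelled knockout, and these 2 enclosed all controls for Psmb8.

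The ratio of each induced subunit to the constitutive subunit it replaces was taken within a library, where no scaling enters. Psmb8 over Psmb5 was 3.7, 3.9 and 3.11 in the libraries labelled knockout, against 3.38, 3.61 and 4.31 in controls. On the log2 scale the means were 1.83 ± 0.17 and 1.91 ± 0.18 (SD, n = 3 each; exact permutation test, two-sided, p = 0.6, adjusted over the 3 pairs 0.7). Psmb9 over Psmb6 was 0.874, 0.995 and 0.87 in the libraries labelled knockout, against 0.837, 0.994 and 1.06 in controls (log2 difference -0.07, exact permutation p = 0.7, adjusted 0.7). Psmb10 over Psmb7 was 0.71, 0.86 and 0.727 in the libraries labelled knockout, against 0.751, 0.94 and 0.952 in controls, a log2 difference of -0.20 (exact permutation p = 0.2, adjusted 0.6). Knockout and control ranges overlapped in all 3 pairs, and with 3 libraries against 3 the smallest p that this test can give is 0.1. The constitutive genes themselves had log2 fold changes of 0.07 (Psmb5), -0.06 (Psmb6) and 0.07 (Psmb7), none past the test.

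**Figure D3:**
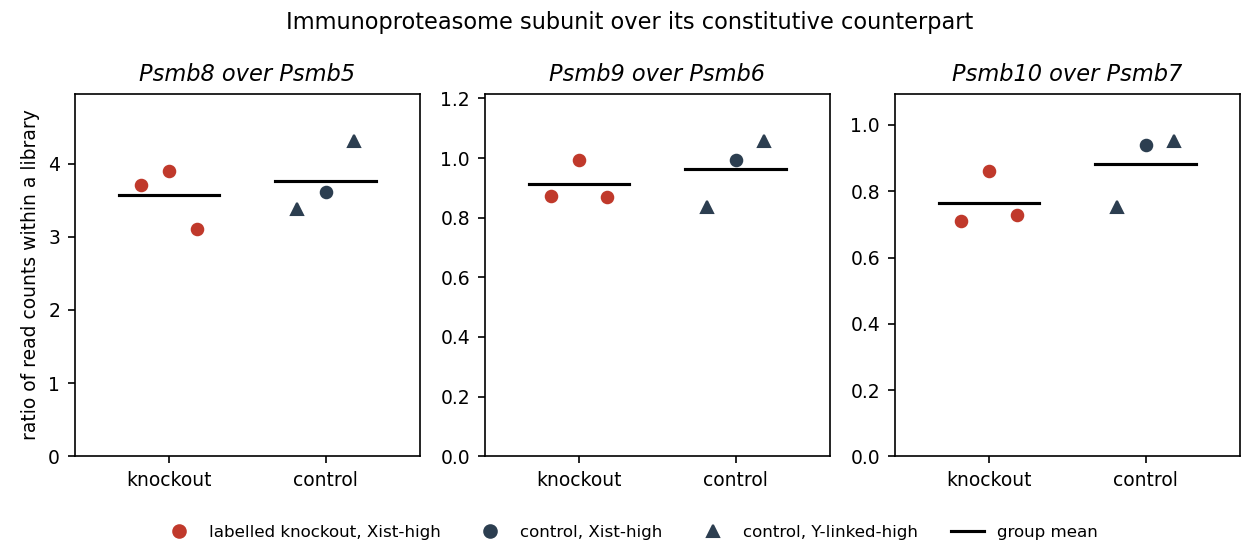
Ratio of read counts of each immunoproteasome gene to its constitutive counterpart within each library (y axis, from 0), libraries labelled knockout left of controls, with a bar at the group mean and symbols as in the plot of levels. Each pair of groups overlaps, with Psmb8 over Psmb5 from 3.11 to 3.9 in the libraries labelled knockout and 3.38 to 4.31 in controls.

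Nlrc5, the class I transactivator, had 73.6, 84.1 and 96.0 CPM in the libraries labelled knockout, against 77.3, 94.6 and 115 CPM in controls. Both groups spread widely, and the ratio was 88.4% (70.3% to 111%, edgeR adjusted p = 0.499), the widest interval of the 10 genes. Across the 9 genes that did not pass, the intervals ran from 70.3% at the low end (Nlrc5) to 125% at the high end (H2-D1).

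Per kilobase of the main annotated transcript the genes fell into steps. B2m stood highest, at 1391 to 1499 CPM per kilobase in the libraries labelled knockout and 1296 to 1489 in controls. H2-K1 followed at 795 to 887 and 791 to 969.7, then H2-D1 at 605 to 646 and 524 to 595. With the reads listed as H2-L added, a step chosen after seeing the data, H2-D1 would lie above H2-K1 in 6 of 6 libraries, at 1103 to 1186 CPM per kilobase in the libraries labelled knockout and 959 to 1076 in controls, so the order of these 2 heavy chains is uncertain. Psmb8 was at 180.4 to 230.01 and 195 to 207. Psmb9, Tap2, Tap1, Psmb10 and Tapbp lay together, with group means of 85.8 to 109 CPM per kilobase in the libraries labelled knockout and 77.9 to 106 in controls, and overlapping ranges between neighbours, except that Tapbp in controls, at 77.9 ± 4.48 (SD, n = 3), lay below Psmb10 at 92.9 ± 5.38. Nlrc5 was lowest, at 9.71 to 12.7 CPM per kilobase in the libraries labelled knockout and 10.2 to 15.1 in controls. Lengths are those of GENCODE, which may not be the annotation the reads were counted on.

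The genes did not vary as 1 block from library to library. Relative to its own mean over the 6 libraries, Nlrc5 ranged most, over 0.64 log2 units, and H2-K1 and Tap1 followed it most closely (Pearson r over 6 libraries, as a description: 0.98 between Nlrc5 and H2-K1 and 0.78 between Nlrc5 and Tap1). Tap2, Psmb8, Psmb9 and Psmb10 shared another pattern, in which knockout replicate 3 was the lowest library for all 4 (r of 0.91 between Tap2 and Psmb8 and 0.84 between Psmb8 and Psmb9). Psmb8 and Nlrc5 had an r of 0.01, and Tapbp and Nlrc5 one of -0.52. The libraries share their scaling, and 7 of the 10 genes, not B2m, Psmb10 or Nlrc5, share a locus. These values thus describe the libraries only. By the rule for likeness, the genes closest to the mean profile of the 10 were Mavs (r = 0.97 over 6 libraries), Bcl2l14, Mrpl9, Zfp942 and Fam53a (0.96 to 0.97), of which none passed the test between the groups (edgeR adjusted p of 0.852 to 0.958).

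**Figure D4:**
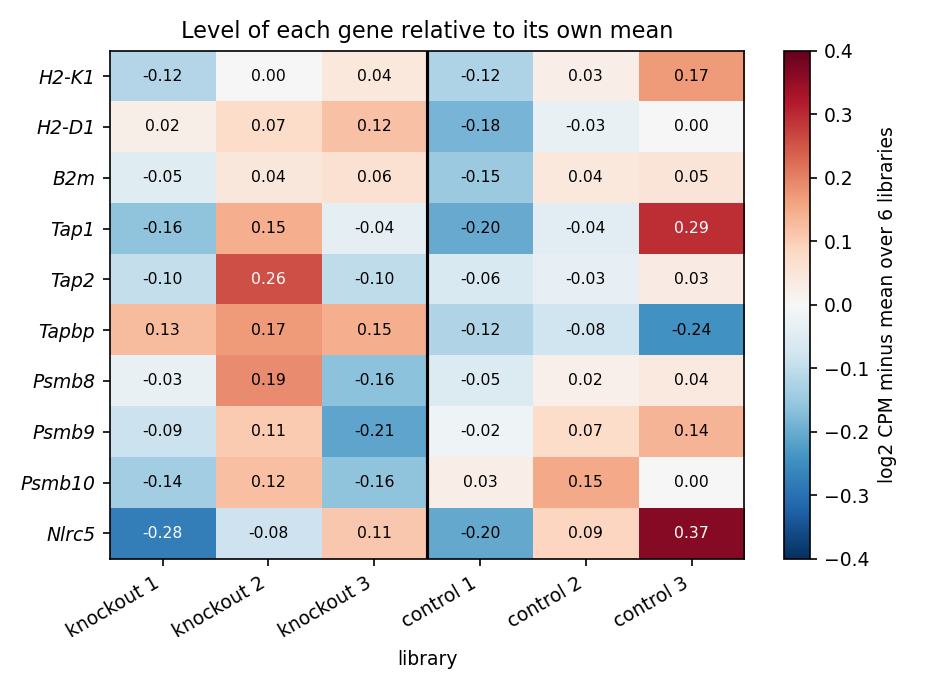
Log2 CPM of each gene minus its own mean over the 6 libraries (colour and printed value), genes in rows and libraries in columns, libraries labelled knockout left of the line. The row of Tapbp changes sign at the line, from 0.13 to 0.17 on the left and -0.24 to -0.08 on the right, and control replicate 3 holds the highest values of Nlrc5 (0.37) and Tap1 (0.29).

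Other genes of the pathway were read from lists by role. Chaperones and editors of class I in the endoplasmic reticulum (Calr, Canx, Pdia3, Erap1, Tapbpl, Uggt1, Ganab and Bcap31) had 0 of 8 past the test with edgeR, DESeq2 and limma-voom alike, and 2 with an unadjusted edgeR p under 0.05. These were Erap1, the aminopeptidase that trims peptides to fit the class I groove, at 136 to 139 CPM against 148 to 167 CPM in controls (log2 fold change -0.20, edgeR adjusted p = 0.0948), and Bcap31 at 137 to 144 against 147 to 167 CPM (-0.17, 0.156), both named after their values were seen. Other genes of the 20S proteasome, its assembly and the PA28 cap had 0 of 19 past the test with each of the 3 tools, 1 with an unadjusted edgeR p under 0.05, and a median log2 fold change of 0.00. Of the 77 other genes tested that lie on chromosome 17 between Tapbp and H2-D1, 2 were higher and 2 lower. Over all genes the shares were 3.85% and 4.58%.

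Other class I and class I-like heavy chains had 2 of 23 higher, 0 lower and 21 not past the test, and 7 more did not pass the filter on low counts. Over all genes 3.85% were higher and 4.58% lower. At an unadjusted edgeR p under 0.05 there were 8 of the 23, against 24.9% of all genes. H2-M2, a non-classical heavy chain gene, had 2.33, 2.82 and 4.33 CPM in the libraries labelled knockout, against 0.184, 0.497 and 0.207 CPM in controls. Its groups did not overlap (edgeR adjusted p = 0.00623, log2 fold change 3.24, SE 0.44), and the level was low in every library, under 5 CPM. H2-M2 passed the filter on low counts only through the libraries labelled knockout, where it was higher. Leaving out a library kept the call (edgeR adjusted p of 0.0095 to 0.0322), at log2 fold changes of 2.97 to 3.96, the highest without control replicate 2. With the sex term its log2 fold change was 2.63 and did not pass (edgeR adjusted p = 0.123). Hfe, a B2m-bound class I-like protein that regulates iron uptake, had 31.8, 29.97 and 37.8 CPM in the libraries labelled knockout, against 21.5, 26.3 and 19.7 CPM in controls (log2 fold change 0.55, edgeR adjusted p = 0.0422, and 0.468 with the sex term at a log2 fold change of 0.33). Without 5 of the 6 libraries in turn, Hfe did not pass either (edgeR adjusted p up to 0.125), nor with limma-voom (adjusted p = 0.0571). Some of the 23 repeat each other: H2-Q7 and H2-Q9 had the same count in every library, H2-Q6 and H2-Q8 differed by at most 1 read, and H2-T22 and H2-T9 by at most 3.

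Of 8 factors that work with Nlrc5 at the class I promoter, 1 was lower and 7 did not pass, where 4.58% of all genes were lower. At an unadjusted edgeR p under 0.05 there were 2 of the 8, against 24.9% of all genes. Nfya, the NF-Y subunit that recognises CCAAT, had 179, 201 and 182 CPM in the libraries labelled knockout, against 223, 236 and 239 CPM in controls (edgeR adjusted p = 0.0307, log2 fold change -0.31, SE 0.07). The call was lost without any 1 library (adjusted p of 0.0525 to 0.102) and with the sex term (0.261, at -0.33). Rfx5, which binds the X box, had 67.2 to 76.9 CPM against 72.0 to 78.9 CPM in controls (edgeR adjusted p = 0.701).

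Of 15 interferon and NF-kB regulators, 1 was higher and 14 did not pass, where 3.85% of all genes were higher. A positive log2 fold change was found for 12 of the 15, against 49.6% of all genes. At an unadjusted edgeR p under 0.05 there were 4 of the 15, against 24.9% of all genes. Whether the list differs from all genes was not tested. Stat2, part of the type I interferon transcription complex, had 79.6, 89.3 and 93.2 CPM in the libraries labelled knockout, against 65.2, 71.9 and 69.7 CPM in controls (log2 fold change 0.34, edgeR adjusted p = 0.0338, lost when any of 4 of the 6 libraries was left out, at up to 0.118, and 0.393 with the sex term, while the log2 fold change stayed between 0.28 and 0.40). Irf1, which binds the interferon element of class I promoters, had 124, 138 and 127 CPM against 115, 112 and 133 CPM in controls (edgeR adjusted p = 0.431).

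**Figure D5:**
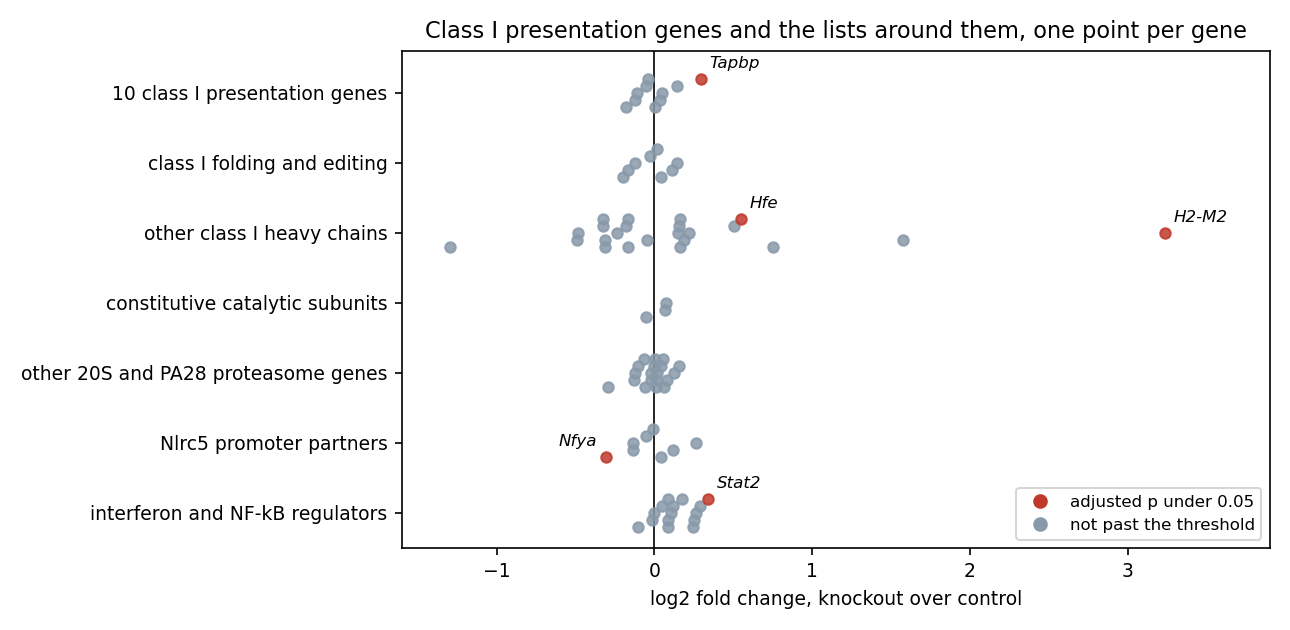
Log2 fold change, libraries labelled knockout over control (x axis), of each gene tested in the 10 class I presentation genes and in the 6 lists around them (rows), with genes past an adjusted p of 0.05 named and in red. Apart from H2-M2 (3.24) and Hfe (0.55), the named genes lie between -0.31 and 0.34.

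Some markers of myeloid and erythroid cells were higher in the libraries labelled knockout, some stem or progenitor markers were lower, and those of lymphoid cells mostly did not pass. Over all genes tested 3.85% were higher and 4.58% lower. Monocyte, macrophage and dendritic cell markers had 7 of 13 higher and 0 lower, with the sums given beside Tapbp and Siglech under 1 CPM in every library. Neutrophil markers had 4 of 11 higher, Ltf, Lcn2, Ngp and Cd177. The 11 summed to 7169 to 9189 CPM in the libraries labelled knockout, against 2967 to 5742 CPM in controls. S100a8, S100a9 and Camp did not pass, at log2 fold changes of 0.93, 0.89 and 0.83. Mmp8, Mmp9, Retnlg and Cxcr2 did not pass either, at 0.02, -0.14, 0.35 and 0.21. Erythroblast markers had 4 of 5 higher, at 61.3 to 182 CPM in the libraries labelled knockout against 10.9 to 21.6 CPM in controls. B and plasma cell markers had 1 of 7 past the test, Cd79b, lower at 11.4 to 14.4 CPM against 27.3 to 29.6 CPM in controls. Their sum of 627 to 836 CPM, against 463 to 711 CPM in controls, was nearly all Igj, the immunoglobulin J chain gene of plasma cells, at 600.2 to 812 CPM against 428 to 672 CPM in controls. T and NK cell markers had 0 of 7 past the test with each of the 3 tools (1 with an unadjusted p under 0.05) at 234 to 303 CPM against 173 to 245 CPM, with Pax5, Ms4a1 and Ncr1 under 1 CPM in every library. Gate and stem or progenitor markers had 5 of 8 lower, Ly6a, Cd34, Gata2, Meis1 and Flt3. The 8 summed to 1311 to 1446 CPM against 1744 to 2157 CPM in controls. Kit and Slamf1 had negative log2 fold changes without passing, and the groups of Slamf1 overlapped. Mecom went the other way without passing (log2 fold change 0.23, edgeR adjusted p = 0.218). Its groups did not overlap, at 24.6 to 30.3 CPM against 21.6 to 23.4 CPM in controls. Only 1 of 8 was called lower without knockout replicate 1, knockout replicate 2 or control replicate 1, and 3 without knockout replicate 3 or control replicate 3. The monocyte list had 4 higher without knockout replicate 2, knockout replicate 3 or control replicate 1, and 6 to 8 in the other omissions. The neutrophil list had 3 higher without knockout replicate 1, 2 or 3 or control replicate 2. It had 5 without control replicate 1 and 7 without control replicate 3. The fits that left out a library called 2.1% to 7.15% of all genes. With the sex term, the myeloid, erythroblast and stem or progenitor lists had 0 past the edgeR threshold. An unadjusted edgeR p under 0.05 was met by 6 of 13 monocyte, 3 of 11 neutrophil, 4 of 5 erythroblast and 4 of 8 stem or progenitor markers. Of all genes, 1633 of 13679 met it in that fit. The part of these markers in the values of Tapbp, Hfe, H2-M2, Nfya and Stat2 was not tested.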

How the data were processed

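RNA of 3 libraries labelled knockout and 3 control libraries was analysed from 1 table of counts, deposited by the authors as whole numbers of reads for each gene symbol and not normalized. The submitters' processing notes name STAR and mm10. How reads were counted, on which annotation and with which strand setting, is not given in these sources; the labels' protocols name a directional library kit. The table held 24063 symbols, 4092 of them with no read.

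The tests used edgeR 4.0.16 (R 4.3.3): filterByExpr (minimum count 10, minimum total 15), TMM scaling, and a quasi-likelihood F test with the group as the sole term, which left 13679 symbols. P-values were adjusted by Benjamini and Hochberg's method across all tested symbols and called under 0.05, and intervals are 95% intervals from the same fit. The fits were tested on simulated counts. DESeq2 1.42.0 and limma 3.58.1 (limma-voom) were alternatives. Every pair of libraries differed by a chi-square of at least 10.7 per degree of freedom, so none repeated another.

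Named genes are the 10 genes, those of the related lists past the threshold, Psmb5, Psmb6, Psmb7, Irf1 and Rfx5, and the 5 genes with the most similar profile; any other gene was picked with its values in view, and 1 gene covered by this rule is not reported here. The genes and lists were chosen with earlier results of these data known. Of the listed symbols, 2 were matched through a synonym and 1 was not matched. Promoter letters are from RefSeq (GRCm38.p6).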

Additional observations from a re-analysis of the deposited data

How the results depend on the processing

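Tapbp kept a positive log2 fold change in all 15 alternatives (0.23 to 0.34) and lost its call in 6 of them; the other 9 genes passed in none. The count of called class I presentation genes was 0 to 1 when each library was left out in turn, and 0 with the sex term. Over those omissions, genes called across the table numbered 119 to 440 higher and 171 to 544 lower, and related genes 1 to 3 higher and 0 to 1 lower, against 526, 626, 3 and 1. With the sex term these were 7, 36, 0 and 0. An adjusted p under 0.1 gave 951, 1051, 7 and 4, and DESeq2 gave 833 higher across the table and 5 and 3 related genes. Lower related genes numbered 3 without the low-count filter and 2 under a stricter filter. The replicate number as a block gave 1169, 1003, 10 and 4, with Tapbp as the only class I presentation gene called. The labels do not say that the numbers mark a pairing. Same-numbered libraries had deviations correlated at 0.293, -0.0048 and 0.339, and differently numbered ones at -0.331 to 0.0578. Replicates 1 and 3 correlated best with their own number and replicate 2 did not, so whether the numbers mark a pairing is not known.

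Small values changed sign without passing any test. Psmb8 was at -0.018 with upper-quartile scaling, -0.0027 with limma-voom, -0.0012 with the replicate block and -0.013 with the sex term, where B2m was at -0.021 and Tap1 at 0.031. Leaving out a library gave -0.095 to 0.082 for Psmb8, -0.15 to 0.11 for Tap1, -0.077 to 0.11 for Tap2, -0.027 to 0.076 for B2m and -0.12 to 0.021 for H2-K1. Over the same omissions the log2 difference of Psmb8 over Psmb5 ran from -0.15 to 0.025, of Psmb9 over Psmb6 from -0.17 to -0.0012, and of Psmb10 over Psmb7 from -0.31 to -0.14. The cause was not tested. Control replicate 2 is the sole female control, so sex and group are separated by 1 library.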

Other observations

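The balance among class I presentation genes can be read within a library, where no scaling between libraries enters. The ratio of H2-K1 to H2-D1 counts was 1.01, 1.06 and 1.06 in the libraries labelled knockout, against 1.16, 1.16 and 1.26 in controls, so the groups did not overlap. The part of sex in this ratio was not tested. Tapbp counts were 22.8%, 22.04% and 21.4% of B2m counts in the libraries labelled knockout, against 20.6%, 18.6% and 16.5% in controls. Of the 45 pairs among the 10 genes, 12 had ratios that did not overlap between the groups. For single genes, 31.2% of all those tested did not overlap in CPM, and the share over all pairs of genes was not computed. Of the 12 pairs, 8 included Tapbp or H2-D1, the 2 genes whose own CPM did not overlap. These pairs were singled out after their values were seen and were not tested, and the ratio to H2-D1 carries the mapping limit given above.

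Among class I-like genes outside the classical set, 4 with an edgeR adjusted p of 0.0524 to 0.0614 were named after their values were seen. Fcgrt, the neonatal Fc receptor, which also binds B2m, had 34.2, 40.2 and 54.0 CPM in the libraries labelled knockout, against 19.5, 24.5 and 32.2 CPM in controls, with no overlap (log2 fold change 0.75, edgeR adjusted p = 0.0614). Cd1d1, which presents lipids to NKT cells, had 26.7, 29.4 and 22.5 CPM against 34.4, 34.0 and 42.2 CPM in controls (-0.48, edgeR adjusted p = 0.0533). Cd1d2 had 0.687, 0.968 and 0.802 CPM against 2.40, 1.42 and 2.41 CPM in controls (-1.30, edgeR adjusted p = 0.0524). H2-M5, a non-classical heavy chain gene, was low throughout, at 1.22, 0.968 and 0.642 CPM in the libraries labelled knockout and 0.369, 0.355 and 0.207 CPM in controls (1.57, edgeR adjusted p = 0.0583). Like H2-M2, it passed the filter on low counts only through the libraries labelled knockout. Of the 23 class I and class I-like genes, DESeq2 called 4 higher and 2 lower and limma-voom 1 and 0. The edgeR fit with the sex term called 0 and 0. Over all genes these 3 fits called 12.2%, 8.06% and 0.314%. With the sex term, 3 of the 23 had an unadjusted edgeR p under 0.05, as had 1633 of 13679 genes.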
